A study of Mus musculus with 16 samples.

Results

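The 10 genes described here encode transcription factors and a corepressor that control the formation and upkeep of fat cells: Pparg, Cebpa, Cebpb, Cebpd, Klf15, Rxra, Nr1h3, Nrip1, Ebf2 and Zfp423. They were taken by symbol, and all 10 were found among the 30325 genes measured in gonadal fat and the 30946 genes measured in subcutaneous fat. The RNA came from female mice that are null for Lcn2 (B6.129P2-Lcn2tm1Aade/AkiJ on C57BL/6J), and this null background was shared by every group. At 8 weeks of age each mouse was given an AAV8 vector by vein that carried LCN2 or, as control, green fluorescent protein (GFP). The adiponectin promoter, which is active in fat cells, drove both constructs, and a target site for microRNA122 lowered their expression in liver. All mice ate the HF/HS diet (Research Diets D12266B) and were sampled at 16 weeks. Each depot was profiled in 4 LCN2 and 4 GFP samples, and whether equal replicate numbers in the depots mark the same mouse is not given in the labels.

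PPARG is the nuclear receptor at the head of the fat cell programme, and it binds DNA as a heterodimer with RXRA. In the textbook order of adipogenesis, CEBPB and CEBPD act early, PPARG and CEBPA follow and sustain each other, and KLF15 supports both. NR1H3 is the liver X receptor alpha, a sterol sensor that also pairs with RXRA, and NRIP1 (RIP140) is a corepressor of nuclear receptors that restrains oxidative genes in fat. EBF2 marks and drives brown and beige fat precursors, whereas ZFP423 commits precursors to the fat lineage and holds mature cells in the white state by restraining EBF2.

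Gonadal values are normalized counts, that is reads per gene divided by 1 size factor per sample, from libraries of 35173260 to 42890102 reads. Subcutaneous values are rlog, a log2 scale that draws low genes towards their mean, and the depth of those samples is unknown. Lcn2, the check of the vector, lay between 62.1 and 103 normalized counts in gonadal GFP samples and between 186 and 522 in LCN2 samples, and between 7.76 and 8.37 against 8.49 and 9.82 rlog in subcutaneous fat. The groups were separate in both depots, but Lcn2 itself did not pass the test used for the members (limma, adjusted p = 0.108 and 0.308). Some reads were thus assigned to Lcn2 in every gonadal GFP sample of the null background. Whether this holds for each subcutaneous GFP sample cannot be read from rlog. Which part of the gene the null allele lacks is not given in the labels. The 8 markers of fat cells were present in every sample. In gonadal fat they summed to 21792.5 to 33645 CPM, that is reads scaled to the library's total, with GFP and 19328 to 26999.6 CPM with LCN2. With LCN2, 7 of the 8 were lower in gonadal fat and 3 of the 8 in subcutaneous fat. Their median log2 difference, LCN2 minus GFP, was -0.16 in gonadal and 0.07 in subcutaneous fat, and none passed. Subcutaneous GFP replicates 1 and 2 stood apart by their B and T cell markers. On the linear scale of 2 to the power of the rlog, these 12 genes summed to 13316 and 7065 there. They summed to 3513 in LCN2 replicate 4 and to between 579 and 749 in the remaining samples. In gonadal fat the 12 mesothelial markers summed to 239 to 572 CPM with GFP and 126 to 278 CPM with LCN2, and the 11 skeletal muscle markers to 1831 CPM in LCN2 replicate 4 against at most 189.5 CPM elsewhere. In bulk tissue, fewer cells of a type and less RNA per cell cannot be told apart.

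The promoters of Zfp423 and Klf15 are shown because these genes had the largest positive and the largest negative difference among the 10 in both depots with all samples included. Both stretches are RefSeq sequence of GRCm38.p6 and run from 250 bases before the annotated start to 10 bases after it, in the direction of the gene. Capitals mark E-boxes (CACGTG) and a CCAAT box.

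Klf15, chr6:90462326-90462585, plus strand: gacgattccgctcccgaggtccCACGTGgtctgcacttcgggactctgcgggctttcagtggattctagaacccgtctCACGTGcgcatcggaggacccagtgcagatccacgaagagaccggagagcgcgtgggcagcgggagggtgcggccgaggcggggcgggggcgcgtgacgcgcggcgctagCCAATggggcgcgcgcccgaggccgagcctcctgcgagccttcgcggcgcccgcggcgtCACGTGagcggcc

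Zfp423, chr8:87959586-87959845, minus strand: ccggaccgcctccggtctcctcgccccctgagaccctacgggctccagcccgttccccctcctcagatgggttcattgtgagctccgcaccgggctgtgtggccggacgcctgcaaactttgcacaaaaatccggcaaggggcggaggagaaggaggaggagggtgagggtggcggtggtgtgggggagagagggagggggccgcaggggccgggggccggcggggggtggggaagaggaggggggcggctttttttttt

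Windows of 300 bases were on record for 8 of the 10 genes, 14 windows in all, with none for Cebpd and Ebf2. Each was searched on both strands for 7 motifs. The E-box, the motif bound by CLOCK and BMAL1 among others, was found in 1 of the 14 windows, that of Klf15, where it begins at -228, -172 and -3 relative to the start. At least 1 E-box was in 7.15% of 32851 such windows of the genome and at least 3 were in 0.0883%. CCAAT was found in Klf15 at -62 and in a pair of Pparg windows, against 37.4% of all windows. No member window held the D-box TTATGTAA (0.938% of all windows), the C/EBP palindrome TTGCGCAA (0.183%), the glucocorticoid response element (AGAACA and TGTTCT, 3 bases apart; 0.00913%), the PPAR direct repeat (AGGTCA and AGGTCA, 1 base apart; 0.0396%) or the EBF site (TCCC and GGGA, 2 bases apart; 0.904%). The matches did not overlap each other. The Klf15 stretch printed above is 72.3% G and C with 39 CpG sites, and that of Zfp423 is 68.8% G and C with 18.

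None of the 10 genes passed the test over all genes in either depot. This was limma with Benjamini-Hochberg adjustment at 0.05, which called 0.102% of all tested genes in gonadal fat, 0.041% as higher and 0.0614% as lower with LCN2, and 0% in subcutaneous fat. At an unadjusted p under 0.05 there was 1 of the 10 in gonadal fat, Zfp423, where 14.8% of all genes were, and 2 of the 10 in subcutaneous fat, Zfp423 and Rxra, where 14% were. On recovered reads of gonadal fat, edgeR called 0 of the 10, when it called 7 of 19536 genes. DESeq2 called 1 of the 10, Zfp423, when it called 4.29% of all genes. All LCN2 samples lay above all GFP samples for 1 of the 10 genes in gonadal fat (4.4% of all genes) and for 2 of the 10 in subcutaneous fat (3.81% of all genes). No member had all LCN2 samples below all GFP samples (4.71% and 3.27% of all genes). In either direction, the groups did not overlap for 9.11% of all genes in gonadal and 7.08% in subcutaneous fat. The median difference of the 10, LCN2 minus GFP, was -0.08 on the log2 scale in gonadal fat, beside 0.01 for all tested genes, and 0.06 in subcutaneous fat, beside -0.00078. The labels give a group size and do not tie each sample to its own mouse, so the p-values reflect only how far these samples scatter, which may be technical.

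**Figure D1:**
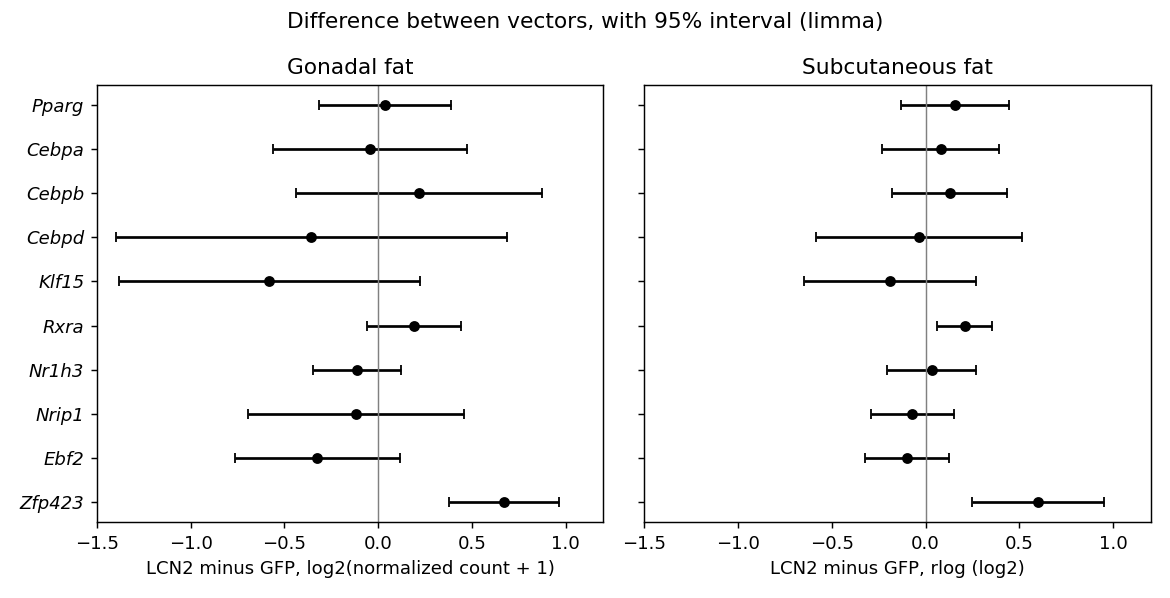
Difference between LCN2 and GFP samples for each gene (vertical axis) on the log2 scale (horizontal axis), with 4 samples per group; points are limma estimates and bars their 95% interval. The intervals of Zfp423 lie above 0 in both depots, from 0.38 to 0.97 in gonadal and from 0.25 to 0.95 in subcutaneous fat, before any adjustment over genes.

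Zfp423 had the clearest separation of the vectors in both depots. The gene (ENSMUSG00000045333, chromosome 8, 87661810 to 87959595, minus strand, GRCm38) encodes a large zinc finger protein of fat precursors, mural cells and mature white fat cells. In gonadal fat its normalized counts were 1995, 2110.0, 2160.4 and 1856 in GFP replicates 1 to 4 and 2504, 3830.3, 3259.7 and 3493 in LCN2 replicates 1 to 4. Every LCN2 sample was above every GFP sample, and LCN2 replicate 1 was the lowest of its group. The means were 3272 ± 563 (SD, n = 4) against 2030.5 ± 135 (SD, n = 4), a log2 difference of 0.67 ± 0.13 (SE) or 1.59-fold, with a 95% interval of 1.30 to 1.95. Its p was the 106th smallest of 19536 genes, and its adjusted p by limma was 0.108.

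In subcutaneous fat the rlog values of Zfp423 were 10.28, 10.35, 10.72 and 10.67 with GFP and 10.77, 11.30, 11.36 and 11.01 with LCN2. The groups again did not overlap, although LCN2 replicate 1 exceeded GFP replicate 3 by little. The difference was 0.60 ± 0.15 (SE), a fold of 1.52 with an interval of 1.19 to 1.94 (limma, adjusted p = 0.308), the 213th smallest p of 20302 genes. Without GFP replicates 1 and 2, which held the most lymphocyte transcripts, the difference was 0.41 ± 0.17 (SE; limma, adjusted p = 0.904, and 0.132 to 0.904 over all alternatives). LCN2 replicate 4, which held fewer of these transcripts, was kept. Across the genes tested in both depots, 161 of 19109 (0.843%) had all LCN2 samples above all GFP samples in each depot, and Zfp423 was 1 of them. If the depots came from the same mice, these are not independent observations.

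The call for Zfp423 in gonadal fat depended on the test and on 1 library. DESeq2 gave a log2 difference of 0.69 ± 0.14 (SE, adjusted p = 0.000365), edgeR 0.69 (adjusted p = 0.117), and limma without LCN2 replicate 1 gave 0.80 ± 0.10 (SE, adjusted p = 0.0359). Across all 22 alternatives the gonadal difference stayed between 0.59 and 0.80, with an adjusted p between 0.000365 and 0.484.

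**Figure D2:**
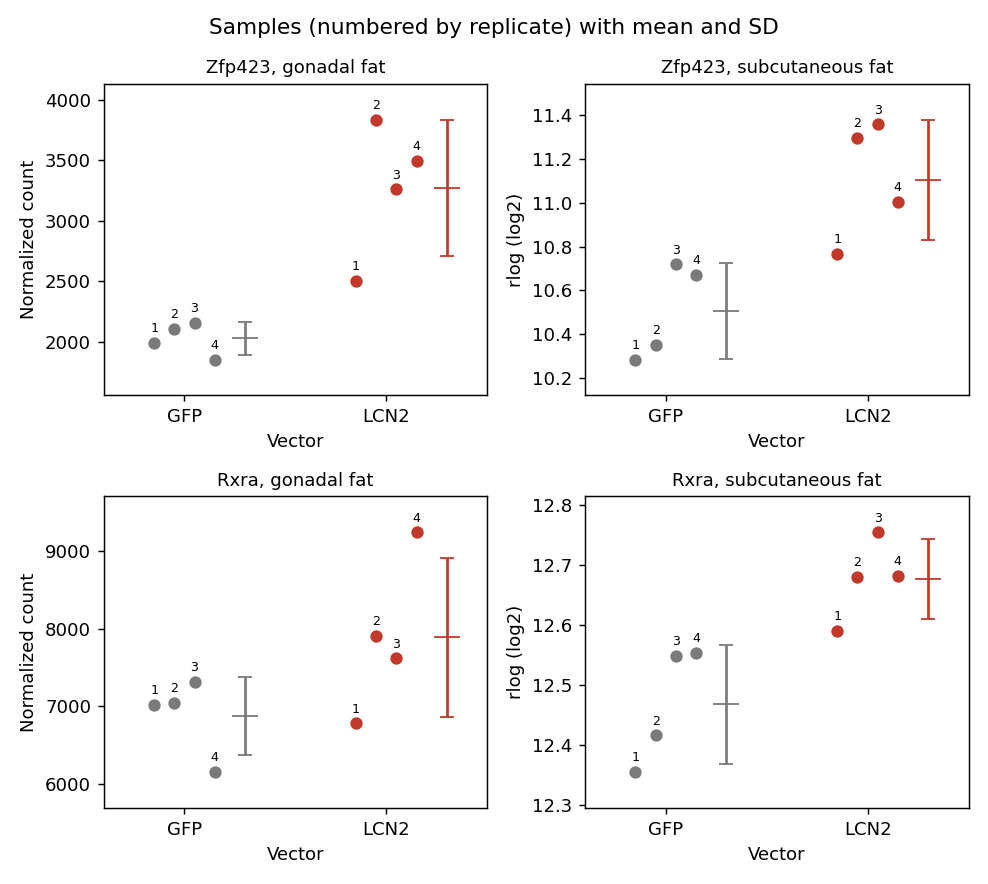
Zfp423 (upper row) and Rxra (lower row) in every sample by vector, as normalized counts in gonadal fat (left) and rlog in subcutaneous fat (right); digits are replicate numbers and bars are mean ± SD of 4 samples. The LCN2 samples of Zfp423 lie above the GFP samples in both depots, from 2504 against at most 2160.4 and from 10.77 against at most 10.72.

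Cell type markers were read beside Zfp423. Of 10 markers of adipose progenitors and fibroblasts, 7 had a positive difference in gonadal fat and 8 in subcutaneous fat, and none passed. In gonadal fat, however, the 3 with a negative difference all had an unadjusted p under 0.05, against 1 of the 7 positive ones. These 3, named after their values were seen, were Dpp4 at -0.71 ± 0.25 (SE), Dcn at -0.59 ± 0.22 (SE) and Pdgfra at -0.48 ± 0.18 (SE). The sum of all 10 markers was 2244 to 3562 CPM with GFP and 2570.2 to 3173 CPM with LCN2 in gonadal fat. None of the 10 was at 0 in all samples. In subcutaneous fat the sum of 2 to the power of the rlog over the 10 was 50379 to 100883 with GFP and 82341 to 124419 with LCN2. With the standardized mean of these markers as a covariate, an analysis added after seeing the data, Zfp423 had a difference of 0.70 ± 0.11 (SE, adjusted p = 0.0415) in gonadal and 0.65 ± 0.19 (SE, adjusted p = 0.611) in subcutaneous fat. The 8 pericyte and smooth muscle markers summed to 415 to 2331 CPM with GFP and 922 to 1523 CPM with LCN2 in gonadal fat, and to 18280 to 31255 against 27484 to 35225 in subcutaneous fat on the linear rlog scale. The 8 endothelial markers all had a positive difference in both depots, with none passing, and summed to 490.3 to 1219 CPM against 999.9 to 1195 CPM in gonadal fat and to 16671 to 28276 against 25364 to 30471 in subcutaneous fat. The part of the endothelial and pericyte markers in the Zfp423 values was not tested. The mesothelial markers were lower in 12 of 12 members in gonadal fat, and with their score as a covariate the Zfp423 difference was 0.72 ± 0.21 (SE, adjusted p = 0.184). With the fat cell score as a covariate it was 0.68 ± 0.14 (SE) in gonadal and 0.51 ± 0.11 (SE) in subcutaneous fat. That score includes Lep, whose vector groups did not overlap in either depot, so a vector difference enters the score itself. The same holds for the mesothelial score wherever it is used as a covariate. For 5 of its 12 markers all LCN2 samples lay below all GFP samples in gonadal fat (4.71% of all genes).

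Ebf2, the partner that ZFP423 restrains, had overlapping groups in both depots. The gene (ENSMUSG00000022053, chromosome 14, 67233292 to 67430918, plus strand) had gonadal counts of 1208, 1991, 1534 and 1128 with GFP and 1437, 944, 1176 and 1063 with LCN2. Of the LCN2 samples 2 lay below the GFP range and the other two within it. The log2 difference was -0.32 ± 0.19 (SE, interval -0.76 to 0.12; limma, adjusted p = 0.488). It was -0.16 without GFP replicate 2 and -0.75 ± 0.24 (SE, adjusted p = 0.201) with the mesothelial score as a covariate. In subcutaneous fat it was -0.10 ± 0.10 (SE, interval -0.33 to 0.13), with rlog values from 9.61 to 10.03 over both groups.

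The nuclear receptor genes Pparg, Rxra and Nr1h3 encode the 2 partners of the central heterodimer and the sterol-sensing receptor. Rxra (ENSMUSG00000015846, chromosome 2, 27676440 to 27762957, plus strand) had rlog values of 12.35, 12.42, 12.55 and 12.55 with GFP and 12.59, 12.68, 12.75 and 12.68 with LCN2 in subcutaneous fat. The groups did not overlap, with LCN2 replicate 1 close to GFP replicates 3 and 4. The difference was 0.21 ± 0.06 (SE), a fold of 1.16 with an interval of 1.04 to 1.28 (limma, adjusted p = 0.308). Without GFP replicates 1 and 2 it was 0.13 ± 0.07 (SE, adjusted p = 0.904, and 0.153 to 0.904 over all alternatives).

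Gonadal counts of Rxra were 7011, 7036, 7312 and 6146 with GFP and 6775, 7909.7, 7615 and 9242 with LCN2. Here 3 of the LCN2 samples exceeded the GFP range and replicate 1 fell inside it. The difference was 0.19 ± 0.11 (SE, interval -0.06 to 0.44).

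Pparg (ENSMUSG00000000440, chromosome 6, 115360951 to 115490399, plus strand) hardly separated the vectors. Gonadal counts were 4697, 6636, 7889.5 and 5419.9 with GFP and 5736, 6023, 6809 and 6251 with LCN2, and the LCN2 samples lay inside the GFP range. The log2 difference was 0.04 ± 0.16 (SE), a fold of 1.02 with an interval of 0.80 to 1.31. Subcutaneous rlog values were 11.93, 12.03, 12.41 and 12.38 with GFP and 12.21, 12.33, 12.55 and 12.29 with LCN2, a difference of 0.16 ± 0.13 (SE, interval -0.13 to 0.45). GFP replicates 1 and 2 were the lowest 2 samples there, and without them the difference was -0.049.

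Nr1h3 (ENSMUSG00000002108, chromosome 2, 91184061 to 91202834, minus strand) had the narrowest spread of the 10 in gonadal LCN2 samples, 2918 to 3041 normalized counts, against 2846 to 3649 with GFP. The log2 difference was -0.11 ± 0.10 (SE) in gonadal and 0.03 ± 0.10 (SE) in subcutaneous fat, where it was -0.081 without GFP replicates 1 and 2.

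The C/EBP genes are intronless basic leucine zipper genes, and their groups overlapped in both depots. Cebpa (ENSMUSG00000034957, chromosome 7, 35119293 to 35121928, plus strand) sustains mature fat cells. It had gonadal counts of 27563, 35178, 43874 and 22154 with GFP and 28038, 25688, 39041 and 29667 with LCN2, a log2 difference of -0.04 ± 0.23 (SE). Replicate 3 was the highest of each vector group in both depots for this gene. The subcutaneous difference was 0.08 ± 0.14 (SE).

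Cebpb (ENSMUSG00000056501, chromosome 2, 167688915 to 167690418, plus strand), an early inducer of adipogenesis, had counts of 977, 2084, 1887 and 1228 with GFP and 1915, 1493, 2511 and 1199 with LCN2 in gonadal fat. The differences were 0.22 ± 0.29 (SE) and, in subcutaneous fat, 0.13 ± 0.13 (SE). The interval in gonadal fat, -0.44 to 0.87, leaves room for shifts in either direction. These values depended on single samples: the gonadal difference was 0.019 without GFP replicate 1 and 0.39 without LCN2 replicate 4, and the subcutaneous one 0.034 without GFP replicate 1.

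Cebpd (ENSMUSG00000071637, chromosome 16, 15887286 to 15891031, plus strand), which is induced by glucocorticoids and inflammation, was the most variable of the 10. Its gonadal counts were 485, 2410.2, 625 and 921 with GFP and 589, 965, 499 and 884 with LCN2. GFP replicate 2 exceeded every other sample, and the highest sample was 4.97 times the lowest. The log2 difference was -0.36 ± 0.46 (SE) with all samples and 0.11 without GFP replicate 2. In subcutaneous fat GFP replicate 2 was again highest, at 10.30 against 9.10 to 9.74 in the other 7 samples, and the difference was -0.04 ± 0.24 (SE), or 0.20 without that sample.

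**Figure D3:**
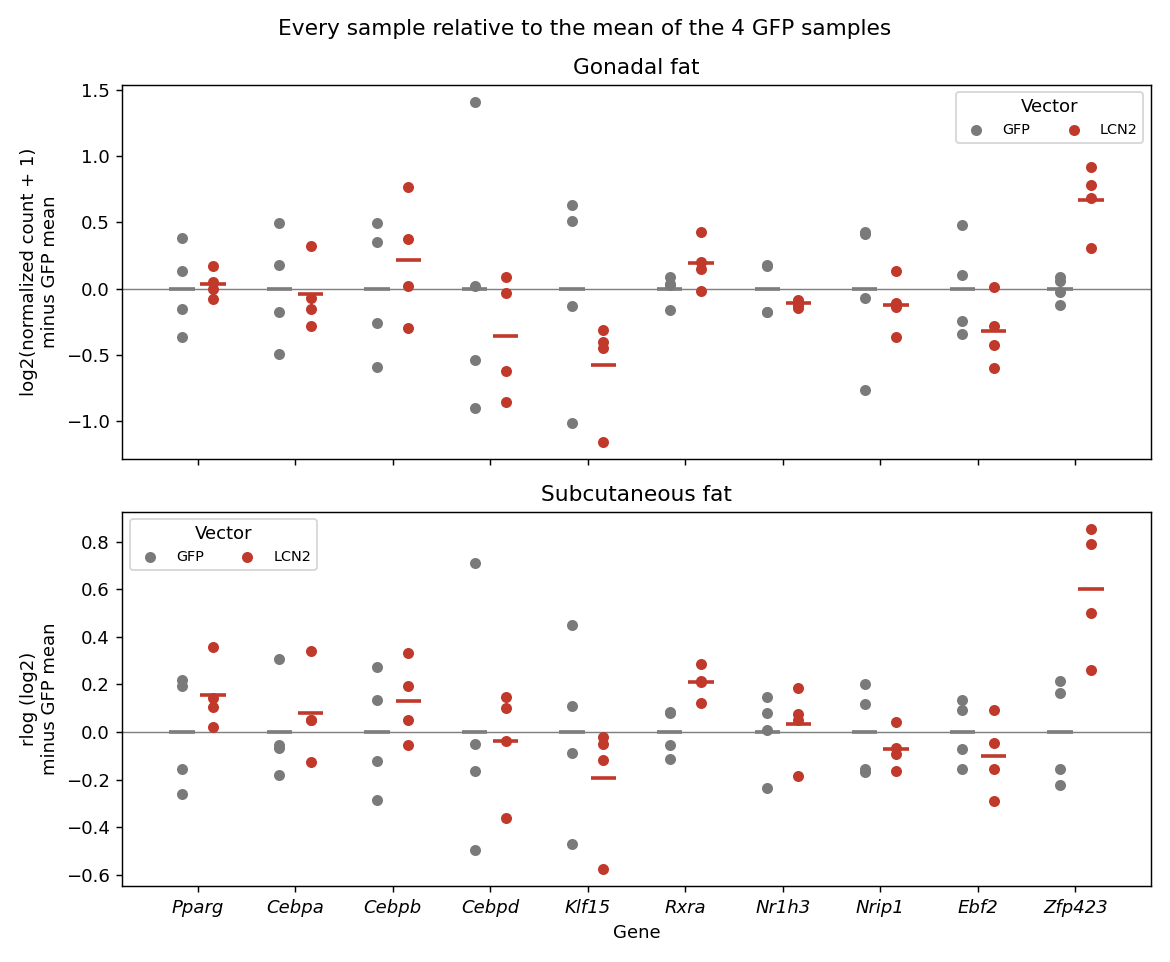
Every sample of the 10 genes relative to the mean of the 4 GFP samples, on the log2 scale of each depot (upper panel gonadal, lower panel subcutaneous); grey points are GFP, red points LCN2, and short lines are group means. Zfp423 is displaced in both depots, by 0.67 and 0.60, while Cebpd and Klf15 show the widest scatter among GFP samples.

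Klf15 (ENSMUSG00000030087, chromosome 6, 90462576 to 90475238, plus strand) is a glucocorticoid- and clock-regulated activator of Pparg and of glucose and amino acid metabolism. Gonadal counts were 2658, 4133, 4514 and 1436 with GFP and 1298, 2131, 2199.6 and 2339.9 with LCN2. GFP replicates 1 to 3 lay above all LCN2 samples, but GFP replicate 4 lay below 3 of them. The log2 difference was -0.58 ± 0.35 (SE, interval -1.38 to 0.22; limma, adjusted p = 0.493), and dropping GFP replicate 4 took it to -0.92, GFP replicate 3 to -0.37 and LCN2 replicate 1 to -0.39. With the mesothelial score as a covariate it was -1.24 ± 0.48 (SE, adjusted p = 0.237). Subcutaneous rlog values were 11.00, 11.19, 11.53 and 10.61 with GFP and 10.51, 10.97, 11.03 and 11.07 with LCN2, a difference of -0.19 ± 0.20 (SE). Dropping GFP replicate 3 took it to -0.042, LCN2 replicate 1 to -0.063 and GFP replicate 4 to -0.35.

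Clock genes and glucocorticoid-responsive genes were read beside Klf15. Of 16 clock genes, 12 had a negative difference in gonadal fat (median -0.39) and 10 in subcutaneous fat (median -0.16), and none passed. Dbp, an output gene of the clock, had -1.06 ± 0.34 (SE) in gonadal and -0.44 ± 0.21 (SE) in subcutaneous fat, and Arntl, which encodes the activator BMAL1, had 1.90 ± 0.49 (SE) and 0.45 ± 0.29 (SE). Of 13 glucocorticoid-responsive genes, 1 is Lcn2, whose sign the vector sets. Of the other 12, 8 had a negative difference in each depot, with medians of -0.20 and -0.091, and none passed. In gonadal fat the metallothionein gene Mt1 had -0.67 ± 0.25 (SE) and Klf9, a relative of Klf15, -0.41 ± 0.16 (SE). Ddit4, an inhibitor of mTORC1 signalling named after its values were seen, had a positive difference of 0.90 ± 0.37 (SE). Fkbp5, a glucocorticoid receptor chaperone and target, had -0.57 ± 0.29 (SE) in gonadal and -0.45 ± 0.20 (SE) in subcutaneous fat. The part of either set in the Klf15 values was not tested.

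Nrip1 (ENSMUSG00000048490, chromosome 16, 76287400 to 76373827, minus strand) had gonadal counts of 6368, 9019, 8908 and 3931 with GFP and 5193, 6084, 6204 and 7357 with LCN2. All LCN2 samples fell within the wide GFP range. The log2 difference was -0.12 ± 0.25 (SE) in gonadal and -0.07 ± 0.10 (SE) in subcutaneous fat, where rlog values ran from 12.30 to 12.67.

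For the genes without separation the intervals limit what could have been missed. In gonadal fat 8 of the 10 intervals excluded a 2-fold difference in either direction, all but those of Cebpd and Klf15. In subcutaneous fat all 10 did, on a scale that understates the change of low genes. The sign of the difference was the same in both depots for 8 genes, positive for 4 (Pparg, Cebpb, Rxra and Zfp423) and negative for 4 (Cebpd, Klf15, Nrip1 and Ebf2). The difference of the vector's effect between depots was not tested, because the tables had been normalized separately.

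Levels between genes were compared per exonic length, as TPM, which scales reads by gene length and library, computed from the recovered gonadal reads. Cebpa stood highest, with 634 ± 114 TPM (SD, n = 8) and a range of 512 to 824 that no other of the 10 reached. It lay at the 99.3rd percentile of tested genes. Pparg followed with 112 ± 15.1 TPM and Rxra with 72.8 ± 11.9, whose ranges overlapped. Nr1h3 (66.3), Cebpb (58.7), Klf15 (48.9), Nrip1 (30.8), Zfp423 (25.6), Cebpd (13.1) and Ebf2 (10.05) came next, and each range overlapped that of the next gene. For rlog less the log2 of the length in kilobases, the subcutaneous order was the same except that Cebpb stood above Nr1h3, and there the ranges of Pparg (10.37 to 10.98) and Rxra (9.90 to 10.30) did not overlap.

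**Figure D4:**
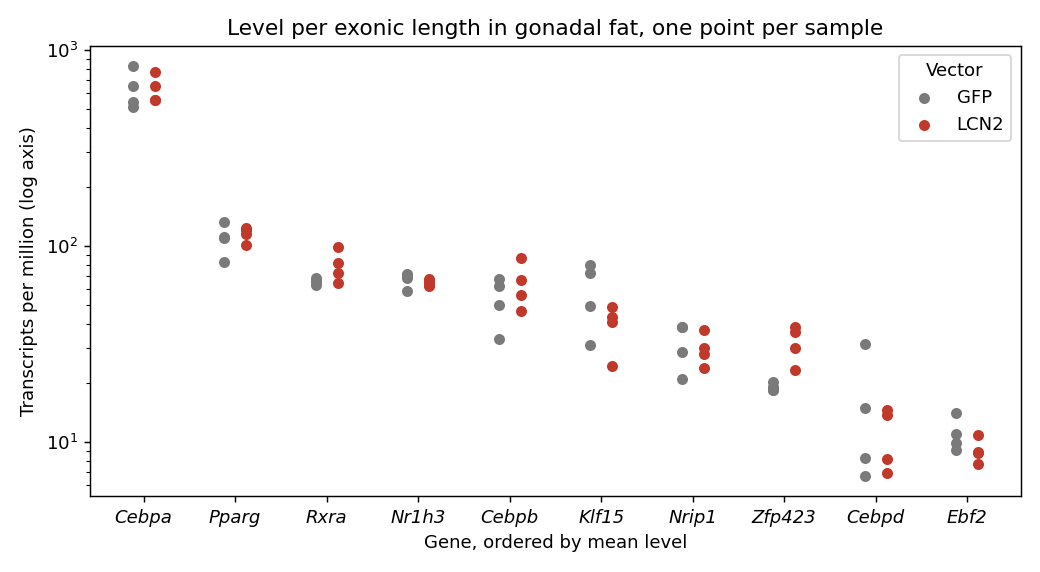
Level of each gene in gonadal fat as TPM on a log axis, 1 point per sample, grey for GFP and red for LCN2, ordered by the mean over 8 samples. Cebpa lies above all others at 512 to 824 TPM, and only for Zfp423 do the red points all lie above the grey.

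Among the 10 genes, some varied together from sample to sample. Over the 8 gonadal samples, Klf15 and Nrip1 had a Pearson r of 0.91 (exact permutation p = 0.00337, adjusted 0.132 over 45 pairs), a Spearman rho of 0.93 (exact permutation p = 0.00223, adjusted 0.1004) and an r of 0.80 without the 2 samples farthest from the median of Klf15. In subcutaneous fat the pair had an r of 0.86 (exact permutation p = 0.00241, adjusted 0.0541), a rho of 0.86 (exact permutation p = 0.0107, adjusted 0.121) and an r of 0.72 without 2 samples. Pparg and Cebpa had an r of 0.81 in gonadal fat (exact permutation p = 0.0132, adjusted 0.145), with a rho of 0.88 (exact permutation p = 0.00724, adjusted 0.109) and an r of 0.94 without 2 samples. In subcutaneous fat they had an r of 0.80 (exact permutation p = 0.0210, adjusted 0.135), with a rho of 0.79 (exact permutation p = 0.0279, adjusted 0.251) and an r of 0.82 without 2 samples. Neither pair passed the adjustment over 45 pairs. By Pearson r, 0 of the 45 pairs passed in gonadal fat and 1 in subcutaneous fat, Rxra with Zfp423. No pooled r is given for that pair because their vector groups are separate. By Spearman rho, Pparg with Nr1h3 also passed in subcutaneous fat, with a rho of 0.95 (exact permutation p = 0.00114, adjusted 0.0257). Their Pearson r there was 0.82 (exact permutation p = 0.0162, adjusted 0.135), or 0.87 without 2 samples. In gonadal fat their rho was 0.83 (exact permutation p = 0.0154, adjusted 0.138).

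Samples that carry the same vector and replicate number in the depots had similar values for several of the genes. Over the 8 such label pairs, Cebpd had a Pearson r of 0.95 (two-sided exact permutation p = 0.000967, adjusted 0.00546 over 10 genes), a rho of 0.83 (exact permutation p = 0.0154, adjusted 0.0384) and an r of 0.83 without the 2 samples farthest from its gonadal median. Klf15 had an r of 0.95 (exact permutation p = 0.00109, adjusted 0.00546), a rho of 0.93 and an r of 0.96 without 2 samples. Cebpb had an r of 0.91 (exact permutation p = 0.0026, adjusted 0.00868), a rho of 0.88 and an r of 0.77 without 2 samples, and Nrip1 an r of 0.85 (exact permutation p = 0.00513, adjusted 0.0128) but a rho of 0.71 (exact permutation p = 0.0576, adjusted 0.115). Pparg, with 0.56, Cebpa, with 0.74, Nr1h3, with 0.29, and Ebf2, with 0.44, did not pass. No r is given within the vectors, which hold 4 samples each. None is given over both for Zfp423 or Rxra, whose vector groups are separate in at least 1 depot. Over all genes tested in both depots, deviations from the group mean correlated between same-labelled samples at -0.08 to 0.45, and 2 of 8 gonadal samples correlated best with the subcutaneous sample of their own label.

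**Figure D5:**
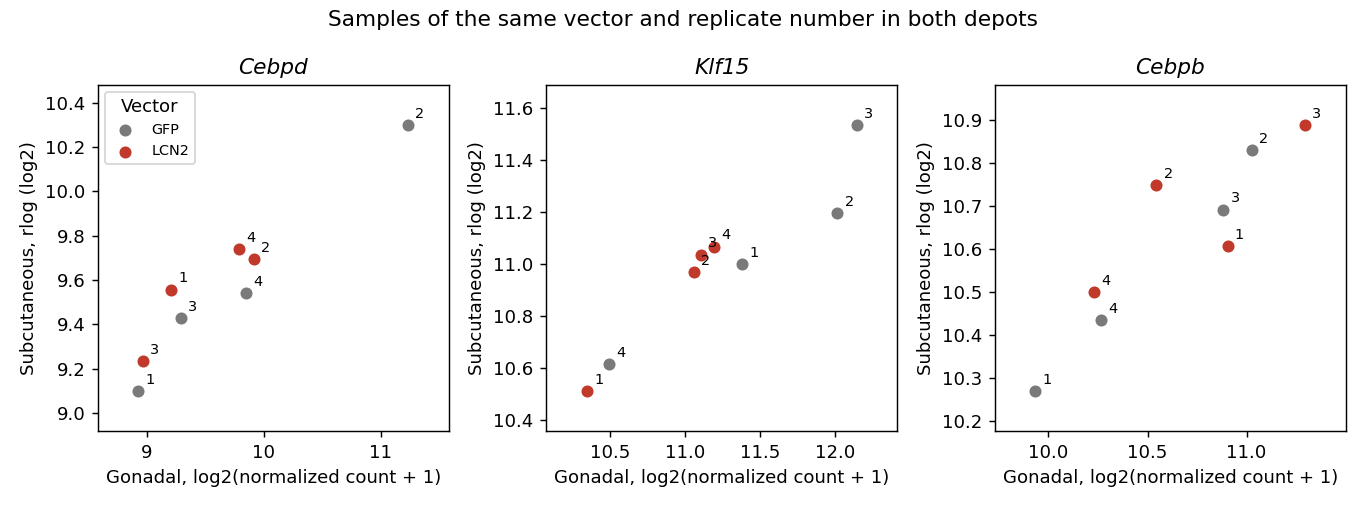
Cebpd, Klf15 and Cebpb in gonadal fat (horizontal axis, log2 of the normalized count plus 1) against subcutaneous fat (vertical axis, rlog) for the 8 pairs of equal label; digits are replicate numbers. GFP replicate 2 is highest for Cebpd in both depots, and LCN2 replicate 1 is lowest for Klf15 in both.

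By likeness of pattern over all 16 samples, with each depot centred on its own mean, the genes nearest to Zfp423 among 14596 by Pearson correlation were Serpina3c, the potassium channel gene Kcnj14 and the receptor tyrosine kinase gene Ret. The vector difference itself enters this ranking, so no r is given for Zfp423 or for Rxra, whose groups are separate in at least 1 depot. The log2 differences of Kcnj14 were 2.05 (gonadal) and 1.19 (subcutaneous), and those of Ret were 1.46 and 1.36. Nearest to Rxra were Ubap2, Sel1l and Nfic, and nearest to Pparg were Mmp28 (r = 0.93), Gpat3 (0.92), an enzyme of triglyceride synthesis, and Atn1 (0.90). Cebpa was most like Cks1b (0.97), Abhd5 (0.97), the coactivator of fat cell triglyceride lipase, and Dolpp1 (0.96). Klf15 was most like Pfkfb1 (0.96) and Cebpd most like the cell cycle kinase gene Wee1 (0.89). These values describe 16 samples whose vector groups and possibly mice are shared.

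The wider network was read from lists of related genes, and in none of these lists did a gene pass limma's test in either depot. Target genes of PPARG and CEBPA in fat cells had a positive difference in 14 of 24 members in each depot, with a median of 0.07 in gonadal and 0.11 in subcutaneous fat. Lep, the gene of the satiety hormone leptin, had 28202 ± 6293 (SD, n = 4) normalized counts with GFP and 69700 ± 16459 (SD, n = 4) with LCN2 in gonadal fat. Its log2 difference was 1.30 ± 0.23 (SE, adjusted p = 0.0964) there and 1.10 ± 0.20 (SE, adjusted p = 0.308) in subcutaneous fat, and its groups did not overlap in either. Cfd, the adipsin gene, had -0.84 ± 0.43 (SE) in gonadal fat, with overlapping groups. Targets of the liver X receptors were positive in 7 of 12 in gonadal and 5 of 12 in subcutaneous fat, with medians of 0.03 and -0.03.

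Relatives of the 10 genes were split, with 6 of 12 tested positive in each depot. Ebf3, a paralogue of Ebf2, had 1556 to 1717 normalized counts with GFP and 1769.6 to 2199 with LCN2 in gonadal fat, a difference of 0.29 ± 0.09 (SE, adjusted p = 0.203). It had 0.28 ± 0.08 (SE, adjusted p = 0.308) in subcutaneous fat, again with groups apart. Ppara, the receptor that drives fatty acid oxidation, lay between 8.07 and 8.10 rlog in the LCN2 samples and between 8.32 and 9.01 with GFP in subcutaneous fat, a difference of -0.58 ± 0.13 (SE), while in gonadal fat it had 0.15 ± 0.42 (SE).

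Repressors of adipogenesis were positive in 11 of 20 members in gonadal and 10 of 20 in subcutaneous fat. Wwtr1, which encodes TAZ, a Hippo pathway coactivator that binds and represses PPARG, had 6806 ± 628 (SD, n = 4) normalized counts with GFP and 9971 ± 408 (SD, n = 4) with LCN2 in gonadal fat. This was a log2 difference of 0.55 ± 0.09 (SE, adjusted p = 0.0803), and in subcutaneous fat it was 0.58 ± 0.13 (SE, adjusted p = 0.308), with no overlap of groups in either depot. Its paralogue Yap1 had 0.13 ± 0.08 (SE) in gonadal and 0.23 ± 0.09 (SE) in subcutaneous fat. Other activators were positive in 10 of 17 and 12 of 18 members. Prdm16, which promotes the brown and beige programme, had 248 ± 62.8 (SD, n = 4) counts with GFP and 463 ± 112 (SD, n = 4) with LCN2 in gonadal fat, a difference of 0.90 ± 0.21 (SE, adjusted p = 0.157).

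Coactivators and corepressors were positive in 8 of 18 members in gonadal and 6 of 18 in subcutaneous fat. Tle3, a coactivator of PPARG that favours white over brown genes, had a difference of 0.52 ± 0.11 (SE, adjusted p = 0.146) in gonadal and 0.28 ± 0.09 (SE, adjusted p = 0.308) in subcutaneous fat. Cited2 had -0.91 ± 0.26 (SE, adjusted p = 0.19) and -0.34 ± 0.15 (SE, adjusted p = 0.349). Brown and beige fat genes, the set that EBF2 promotes and NRIP1 and ZFP423 restrain, were positive in 11 of 13 in gonadal fat (median 1.14) and in 1 of 13 in subcutaneous fat (median -0.44). Skeletal muscle markers had mostly the same signs, with a positive difference in 11 of 11 in gonadal fat (median 1.75) and a negative one in 8 of 11 in subcutaneous fat (median -0.22), and none passed. On the linear rlog scale their subcutaneous sum was 1118 to 1583 with GFP and 1139 to 2098 with LCN2. Hepatocyte markers had mostly these signs too, positive in 11 of 12 in gonadal fat (median 1.35). In subcutaneous fat 10 of 12 were negative (median -0.69), and none passed in either depot. Cpt1b, Fabp3 and Cox7a1 of the brown and beige set are also known as muscle genes. The part of muscle or hepatocyte transcripts in this set's values was not tested. Ucp1 ran from 4.97 to 1081 normalized counts with GFP and from 3.03 to 7819 with LCN2 in gonadal fat, so the spread within groups was far wider than the difference between them.

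Counting could have touched a few of these values. On the opposite strand, Cebpb shares 20.7% of its exonic bases with Tmem189, Cebpd 15% with Spidr, Ebf2 6.1% with Gm10860 and Cebpa 1.9% with Gm45091, and Nr1h3 shares 1.4% with Gm13783 on its own strand. The libraries were stranded, but the strand setting of the counting is not given in the sources used here. Pparg, Klf15, Rxra, Nrip1 and Zfp423 share no exonic base with another annotated gene.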

How the data were processed

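In gonadal fat the values the authors deposited are a normalized signal per gene, read counts divided by 1 size factor per sample; 100% of values above 0 were whole multiples of 1 read within 1e-06. In subcutaneous fat the deposited values are rlog, on a log2 scale. HISAT2, DESeq2, GRCm38 and mm10 are named per the submitters' processing notes; the counter and its annotation: not given in the sources used here. Symbols matched 99.2% of identifiers in each table; lengths and coordinates are from GENCODE on GRCm38 and promoters from RefSeq on GRCm38.p6.

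Each depot was tested separately with limma 3.58.1 (R 4.3.3, intensity trend): log2 of the normalized count plus 1 for 19536 gonadal genes with a mean of at least 10, and rlog as deposited for 20302 subcutaneous genes with a mean of at least 3. P-values were adjusted by Benjamini-Hochberg over all tested genes, with a threshold of 0.05. All 10 members passed these filters. Differences are LCN2 minus GFP. edgeR 4.0.16 and DESeq2 1.42.0 were run on recovered reads. In these libraries 3 reads equal 0.0699 to 0.0853 CPM, which is a conversion of units and measures no error. Scripts were tested on simulated data.

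The members, lists and alternatives were chosen with earlier results of these data known. Beside the members, genes were named if they passed the threshold or were among the 3 smallest p-values of a list in a depot, or among the 3 genes most like a member.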

Additional observations from a re-analysis of the deposited data

Results flagged for a closer look

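In gonadal fat, Klf15 in LCN2 replicate 1 (1298 normalized counts) stood apart from the other 3 LCN2 samples (2131 to 2339.9). Its gap to the nearest of them was 0.841 of the group's whole range on the log2 scale, above Dixon's 95% critical value for 4 samples. This was the 1 sample set apart in this way in 44 groups examined, where chance gives about 1 in 20. Klf15 was lowest in LCN2 replicate 1 in subcutaneous fat as well, at 10.51 rlog.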

How the results depend on the processing

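Of 390 member differences under alternatives, 356 kept their direction and their side of the threshold, 31 turned and 3 came to pass the test, all of Zfp423 in gonadal fat. Of the 20 differences, 11 never turned, among them both of Zfp423, Rxra, Klf15 and Ebf2. With all samples limma called 20 gonadal genes. It called 6 with library totals, 11 with a mean of at least 50, 0 without LCN2 replicate 4 and GFP replicate 2 (1693 at an unadjusted p under 0.05), 0 without GFP replicate 1 and LCN2 replicates 1 and 2 (1631), 0 with the mesothelial score as covariate (3678) and 111 with the progenitor score, which was added after seeing the data. edgeR called 7 and DESeq2 818. Leaving out each sample in turn gave 1 to 66 genes (among GFP samples, 2, 1, 1 and 66 on dropping numbers 1 to 4; among LCN2 samples, 27, 15, 1 and 3). It gave 0 to 1 members, the 1 being Zfp423 without LCN2 replicate 1. DESeq2 and the progenitor score also called 1 member, Zfp423. In subcutaneous fat limma called 0 genes in every setting run (2851 at an unadjusted p under 0.05 with all samples). The cause of these shifts was not tested.

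The replicate number as a block left 0 gonadal genes (2636 at an unadjusted p under 0.05) and no member, with Zfp423 at an adjusted p of 0.197. Deviations of same-numbered samples of the vectors correlated at an r of -0.36 to 0.42 in gonadal and -0.36 to 0.34 in subcutaneous fat. In each depot 1 of 4 numbers correlated best with its own. What samples of equal number share is not given in the labels, and so few pairs cannot decide it.

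The values that turned belong to differences whose 95% interval held 0. In gonadal fat, Cebpa was at 0.02 without LCN2 replicate 4 and GFP replicate 2, 0.068 without GFP replicate 1 and LCN2 replicates 1 and 2, 0.062 with the fat cell score and 0.025 with the progenitor score. Pparg was at -0.011 without GFP replicate 1 and LCN2 replicates 1 and 2 and at -0.21 with the mesothelial score, where Cebpb was at -0.22. Cebpd was at 0.0079 without LCN2 replicate 4 and GFP replicate 2, and Nrip1 at 0.058 with the fat cell score. In subcutaneous fat without GFP replicates 1 and 2, Pparg was at -0.049, Cebpa at -0.039, Cebpd at 0.071 and Nr1h3 at -0.081. With the lymph node score Cebpa was at -0.0089, Cebpd at 0.020 and Nr1h3 at -0.047, and Nr1h3 was at -0.030 with the fat cell score. Leaving out each sample in turn gave, in gonadal fat, -0.21 to 0.12 for Cebpa, -0.086 to 0.16 for Pparg, -0.66 to 0.11 for Cebpd and -0.38 to 0.023 for Nrip1, and in subcutaneous fat -0.0077 to 0.18 for Cebpa, -0.20 to 0.20 for Cebpd and -0.045 to 0.11 for Nr1h3. Without a turn, it gave 0.019 to 0.39 for Cebpb, -0.44 to -0.16 for Ebf2, -0.17 to -0.051 for Nr1h3 and 0.11 to 0.26 for Rxra in gonadal fat, and 0.034 to 0.22 for Cebpb, -0.16 to -0.036 for Ebf2, -0.13 to -0.0028 for Nrip1 and 0.071 to 0.23 for Pparg in subcutaneous fat. With the mesothelial score, gonadal Cebpa was at -0.61, Nrip1 at -0.67 and Nr1h3 at -0.29, none past the threshold.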
